A study of Danio rerio with 16 samples.

Results

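Neurotransmitter receptor genes of the zebrafish, Danio rerio, were followed in mRNA libraries of wild-type AB fish, made with an Illumina TruSeq RNA kit from total RNA of embryos, larvae and adult body parts. Members were chosen by symbol and not by expression. They are all genes whose symbol in the FPKM tables begins with the root of an ionotropic or metabotropic glutamate, GABA-A, GABA-B, glycine, nicotinic, muscarinic, serotonin or dopamine receptor family, apart from gridip names. This gave 144 genes of 32440 gene IDs, in 15 classes. No fish carried a named mutation or treatment. The groups were 24 hpf (24 hours post fertilization; 3 samples of entire embryos), an embryo pool labelled 16 to 36 hpf, larvae 5 days old taken entire, the adult head and the adult tail, each body part used whole. Each group other than 24 hpf is 1 library. The age and sex of the adults and the number of animals per library were not given in the sources used here. Another label of the pool gives its range as 16 somites to 24 hpf, so its place relative to 24 hpf is uncertain.

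Neurotransmitter receptors turn a released transmitter into a signal in the receiving cell. Ionotropic receptors are channels assembled from several subunits, each the product of its own gene, so the set of subunit genes used in a tissue sets how the channel gates, which ions it passes and where it is anchored. Metabotropic receptors act through G proteins. Most act at synapses between neurons, with glutamate as the main excitatory transmitter of the vertebrate brain and GABA and glycine as the main inhibitory ones, while the muscle nicotinic receptor serves the synapse of motor neurons on skeletal muscle. Many zebrafish receptor genes are kept as pairs, marked a and b, from a genome duplication in the teleost ancestor.

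Total counts over genes were 41607139, 40899061 and 44962951 in the 24 hpf samples, 11045403 in the pool, 8532429 in the larvae, 8017208 in the adult head and 8376307 in the adult tail. Levels are normalised read counts (CPM, scaled to a common library size) unless stated, and values given as mean ± SD at 24 hpf are over n = 3. A gene at 0 counts is bounded by 3 counts in its library, which is 0.273 CPM in the pool, 0.304 in the larvae, 0.314 in the head and 0.337 in the tail, and such bounds and the exact 95% intervals of ratios cover counting error only. Cell type markers were summed as lists. The 16 pan-neuronal genes summed to 864 to 1131 CPM at 24 hpf, 1409 in the pool, 2502 in the larvae, 2489 in the head and 69.9 in the tail, and none was at 0 in any group. The 11 skeletal muscle genes summed to 9224 to 17368, 28911, 50994, 17769.6 and 16421 CPM in the same order. Of the 10 retina genes, a set of 7 was high in the larvae at 2473 CPM and in the head at 2126 CPM, and summed to 3.94 to 12.01 CPM elsewhere. The library labelled tail also carried oocyte genes. The 12 tested genes of the oocyte list, which includes yolk precursor genes, all rose there against 24 hpf. They summed to 20877 CPM, against 14.995 to 17.4 CPM at 24 hpf, and none was at 0. Most of this tail sum came from the yolk precursor genes vtg2 and vtg4, at 14051.5 and 4133 CPM. In the head this list summed to 5802 CPM, of which the yolk precursor genes vtg2 and vtg4 made 4695 and 1103 CPM. The other genes of the list each stood at 1.68 CPM or less there, and zp2 and CABZ01044980.1 were at 0. The 10 glia genes summed to 1340.5 to 1381 CPM at 24 hpf, 781 in the pool, 999 in the larvae, 2862 in the head and 297 in the tail, and 4 epidermis genes to 21112 to 26525, 28317, 17003, 21036 and 4973 CPM. In bulk tissue, fewer cells of a type and less RNA per cell cannot be told apart.

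Receptor transcripts were scarce in embryos and abundant in larvae and head. Of 143 members listed per annotation, 17, 15 and 17 reached 1 FPKM, a length-normalised level, in the 24 hpf samples, against 29 in the pool, 91 in the larvae, 88 in the adult head and 13 in the adult tail. The median member stood at 0.128, 0.103 and 0.113 FPKM at 24 hpf, 0.355 in the pool, 1.60 in the larvae, 1.57 in the head and 0.122 in the tail. Members with 0 counts numbered 13, 10 and 12 at 24 hpf, 19 in the pool, 3 in the larvae, 6 in the head and 30 in the tail. Larvae and head held the most members, and the tail the fewest. With the muscle nicotinic subunits set aside, the members summed to 180.2, 146 and 187 CPM at 24 hpf, 278 in the pool, 1566 in the larvae, 1895 in the head and 209 in the tail. Set against the pan-neuronal sum of the same library, these sums were 16.3%, 16.9% and 16.5% at 24 hpf, 19.7% in the pool, 62.6% in the larvae, 76.1% in the adult head and 298% in the adult tail. Single genes weigh heavily in the pan-neuronal sum. Of it, tubb5 made 569, 396 and 563 CPM at 24 hpf but 65.5 CPM in the head. The gene snap25a made 850 CPM in the head, against 65.0, 44.1 and 72.4 CPM at 24 hpf. The percentages therefore depend on the markers listed.

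The classes differed in rank between libraries. By FPKM, with muscle subunits aside, the most abundant members at 24 hpf were nicotinic and glycine receptor genes: chrnb3a, which encodes a beta subunit of neuronal nicotinic receptors, led in samples 1 and 3 at 3.00 and 2.62 FPKM, and chrna5 led in sample 2 at 2.01 FPKM. The glycine receptor gene glra4a led in the pool at 7.50 FPKM. In the larvae grin1a and grin1b, both encoding the obligatory GluN1 subunit of NMDA receptors, led at 40.6 and 34.5 FPKM, ahead of gria3a at 27.6 FPKM. In the head grin1a led at 69.6 FPKM, ahead of gria2b at 43.8 FPKM. In the tail the kainate receptor gene grik1a led at 16.9 FPKM, and the next, grin3b and grin2ab, each stood at 4.38 FPKM.

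**Figure D1:**
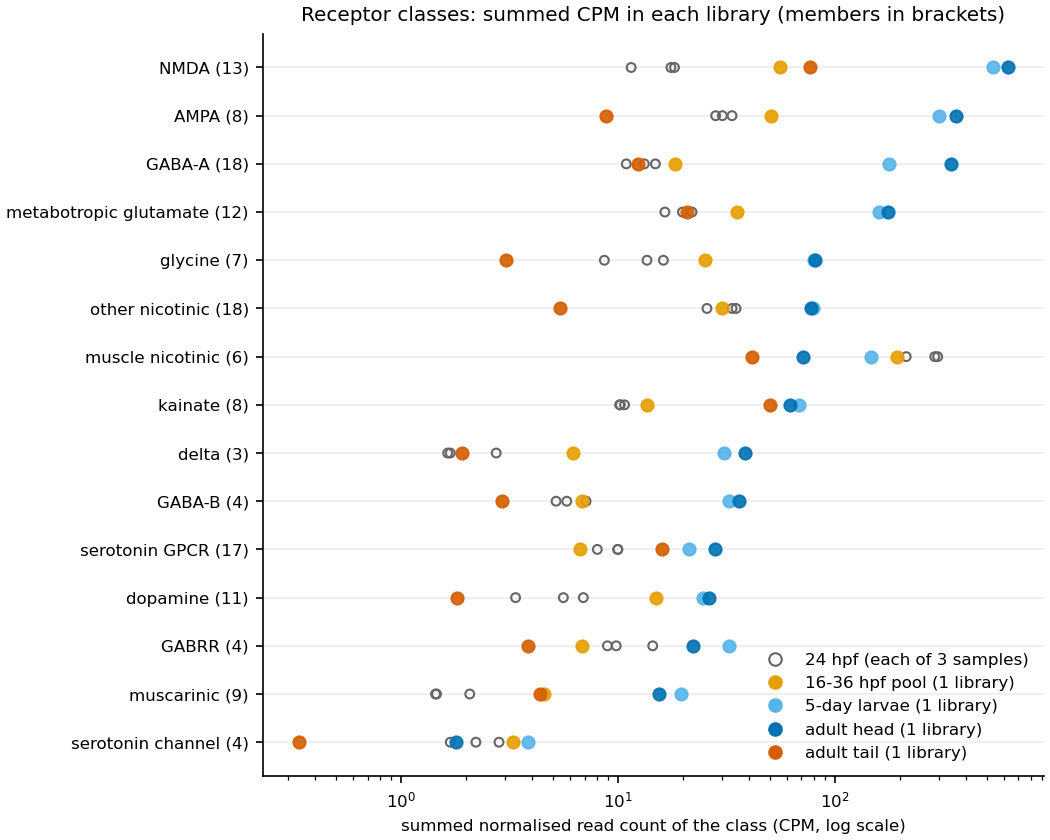
Summed normalised read count (CPM, log scale) of each receptor class in each library, with the number of members in brackets. NMDA sums reach 536 CPM in the larvae and 629 CPM in the head, and AMPA sums 302 and 360.5 CPM, while the muscle nicotinic sum is highest at 24 hpf, between 213 and 297 CPM.

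Each other library was compared with the 3 samples of 24 hpf to ask which receptor genes differ with stage and body part, which follows from the series title on development and homeostasis. Tests used edgeR's quasi-likelihood model over all genes with Benjamini-Hochberg adjustment, and a gene was counted as risen or fallen at an adjusted p under 0.05. Of the 144 members, 121 were tested. Of these, 52 passed the filter on low counts through a 24 hpf library and 69 only through another library, so those 69 had to be higher there and their counts carry no weight of their own. The same limit holds for the adjusted p-values of their rises and for the class counts below, which are not split by filter route. The filter cut of 0.920 CPM applies before the normalisation factors, and at 24 hpf such values are lower than the CPM given here. Tested members under the cut in every 24 hpf sample are of this kind. Among them are grin1b, grin2ab, grin2aa, glra1, gabra6a, gabrb2, chrm2a, drd1, htr5a, htr5al and HTR2B. The 21 shared members not tested had at most 19 counts in any library, and 1 member was listed in only 1 annotation each way (GRIN2D (2 of 2) and htr1aa). Replicates exist at 24 hpf alone. The p-values therefore rest on the variation among 3 embryo samples, which the labels number as biological samples without naming separate clutches, and each lone library is assumed to vary like them.

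In the larvae 87 tested members rose and 2 fell, where over all 21128 genes tested 26.4% rose and 23.2% fell (49.6% in either direction). The median log2 change was 3.28 for members and -0.02 for all genes. Among the 52 members measured at 24 hpf, 32 rose and 2 fell, with a median of 2.00, where 19.5% of all genes measured there rose and 28.5% fell. In the head 85 members rose and 4 fell, against 32.3% and 29.8% of all genes, with a median of 3.18 for members and -0.01 for all genes. Among the 52, 28 rose and 4 fell in the head, with a median of 1.75, where 22.4% and 36.7% of all genes measured at 24 hpf did. Of the rises, 55 in the larvae and 57 in the head were of members that passed the filter only through another library. Without the 6 muscle subunits 87 rose and 0 fell in the larvae and 85 rose and 1 fell in the head. No muscle subunit rose in either library, and no serotonin-gated channel gene rose in the head. The 0 falls came from edgeR, in which both members with an unadjusted p under 0.05 and a lower level in the larvae, chrnd and CHRNG, were muscle subunits, and limma-voom and DESeq2 each had 2 members lower in the larvae at that level. The pan-neuronal list also rose, in 14 of 16 genes in the larvae and 10 of 16 in the head, and its part in these counts was not tested.

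In the tail 18 members rose and 28 fell, where 25.4% of all genes rose and 26.5% fell. The median log2 change was -0.93 for members and -0.11 for all genes, and it came to -0.29 with the 21 members at 0 in a group set to their bound. Among the 52 members measured at 24 hpf, 6 rose and 28 fell, with a median of -2.13, where 20.8% of all genes measured there rose and 32.5% fell. Without the muscle subunits, 18 rose and 23 fell. The pan-neuronal list fell in 15 of 16 genes in the tail, with syt1a as the exception, and its part was not tested. Of the 18 rises, 12 were of members that passed the filter only through another library. Falls outnumbered rises among AMPA genes (5 against 0) and rises outnumbered falls among NMDA genes (6 against 1). These class counts were not split by filter route. The NMDA rises include grin2ab, grin2da and grin2aa, which passed the filter only through another library. The interval of grin2da also differs 23.0-fold between annotations. The rises of grin2db and grin2aa were lost without a 24 hpf sample, as were the AMPA falls of gria4b and gria1b. With limma-voom 12 members fell in the tail, with limma on log2(FPKM + 0.1) 33 rose, and with the pool joined to the 24 hpf samples 9 rose.

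In the pool 12 members rose and 1 fell, where 6.32% of all genes rose and 5.55% fell. The median log2 change was 0.79 for members and -0.08 for all genes, or 1.04 with the 9 members at 0 in a group at their bound. Among the 52 members measured at 24 hpf 6 rose and 1 fell, where 6.2% and 6.83% of all genes measured there did. Of the 13 calls, 0 were kept in all 3 fits that leave out a 24 hpf sample: without sample 1 or without sample 2 edgeR called none, with 30 and 29 members at an unadjusted p under 0.05, and limma-voom also called none, with 32 such members. This limit applies to every rise or fall in the pool against 24 hpf that the class accounts below count or name. The annotation differs between the 24 hpf files and the others, and for the pool its effect cannot be told apart from that of stage: 84 of the 142 shared members span the same interval in both, and of these GABRA2 (2 of 3) and DRD5 (1 of 2) rose and CHRNG fell in the pool, while the other 10 calls fell on members whose interval differs.

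**Figure D2:**
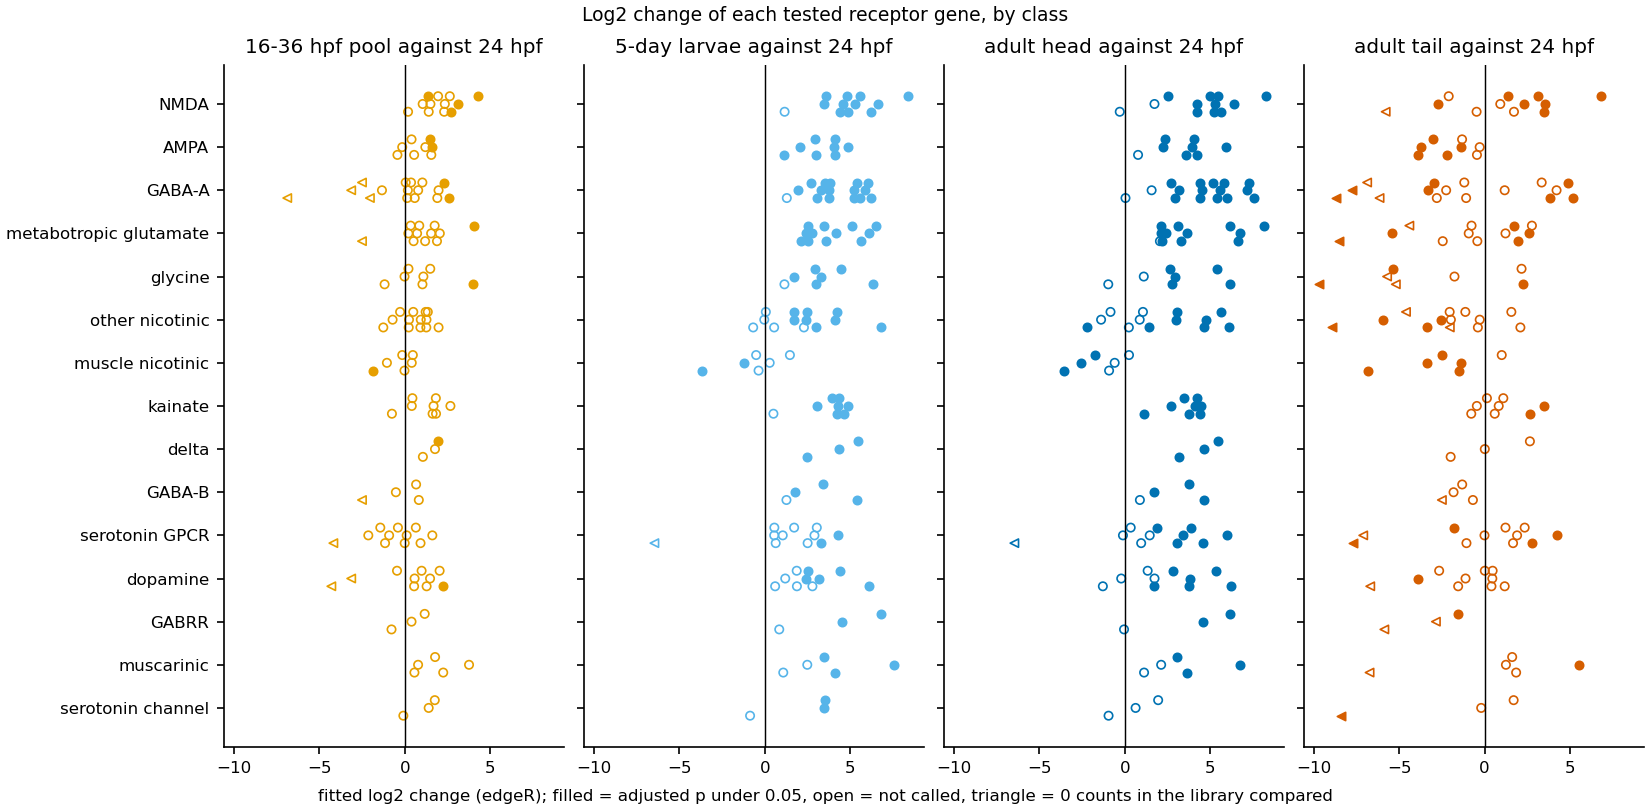
Fitted log2 change of each tested receptor gene against 24 hpf in the pool, larvae, head and tail, by class, with filled points for adjusted p under 0.05, open points for genes not called and triangles for genes at 0 counts in the library compared with 24 hpf. Most filled points lie to the right in the larvae (87 higher, 2 lower) and the head (85 higher, 4 lower), and on both sides in the tail (18 higher, 28 lower).

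AMPA receptors carry fast excitatory transmission, and their 8 genes encode GluA1 to GluA4 in pairs. All 8 rose in the larvae, 7 rose in the head, 2 rose in the pool and 5 fell in the tail. The class summed to 28.2 to 33.5 CPM at 24 hpf, 50.9 in the pool, 302 in the larvae, 360.5 in the adult head and 8.77 in the adult tail. The gene gria2b, one of the pair for GluA2, the subunit that sets calcium permeability, had 1.43, 1.52 and 2.99 CPM in the 24 hpf samples, 5.82 in the pool, 57.6 in the larvae, 123 in the adult head and 0.787 in the adult tail. The head library was the highest and the tail lay below the 3 embryo samples. Its log2 change was 5.95 ± 0.41 (SE) in the head (edgeR adjusted p = 5.05e-05) and 4.86 ± 0.40 in the larvae (edgeR adjusted p = 0.000183), and in the tail it did not pass the test at -1.32. Its partner gria2a had 5.43, 3.75 and 4.91 CPM in the 24 hpf samples, 13.0 in the pool, 77.5 in the larvae, 79.7 in the adult head and 1.01 in the adult tail. Its level rose in the pool, larvae and head and fell in the tail, with a log2 change of -2.21 ± 0.48 there (edgeR adjusted p = 0.00775). The pool call of gria2a was lost without 24 hpf sample 1 or sample 2. The gene gria1a, for GluA1, had 9.12, 9.52 and 8.95 CPM in the 24 hpf samples, 6.83 in the pool, 20.0 in the larvae, 15.8 in the adult head and 1.12 in the adult tail. Only the larval rise, of 1.12 on the log2 scale, passed the test upward, and in the head its change of 0.78 missed the threshold (edgeR adjusted p = 0.0614). Falls in the tail were gria3b (-3.88 on the log2 scale), gria1b (-3.72), gria1a (-3.03), gria2a and gria4b (-1.37). The fall of gria4b was lost without 24 hpf sample 1 (adjusted p = 0.0836) and that of gria1b without sample 2 (adjusted p = 0.0548), both in edgeR.

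The make-up of the AMPA class also differed, by FPKM. The gene gria2b made up 36.4% of the class in the head and 22.9% in the larvae, against 6.88% ± 2.77 at 24 hpf. The gene gria3a, for GluA3, made up 25.5% in the head and 28.5% in the larvae, against 11.3% ± 1.17 at 24 hpf. The interval of gria3a differs between annotations, and by CPM its share was 15.8% in the head and 17.8% in the larvae, against 10.01% ± 1.38 at 24 hpf. The share of gria1a ran the other way, at 3.07% in the head and 4.89% in the larvae, against 18.1% ± 2.34 at 24 hpf, or by CPM 4.39% and 6.63%, against 30.2% ± 3.55. These differences exceed the spread of the 24 hpf samples on both scales and were not tested.

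NMDA receptors are calcium-permeable glutamate receptors that need GluN1 subunits with GluN2 or GluN3 partners. Of the 12 tested genes, 11 rose in the larvae, 10 in the head, 4 in the pool and 6 in the tail, and 1 fell in the tail. The gene grin1a (Zv9 chromosome 21, 9892651 to 9926980) had 9.62, 6.40 and 8.98 CPM in the 24 hpf samples, 21.2 in the pool, 174 in the larvae, 315 in the adult head and 1.24 in the adult tail. This gene rose in the pool, larvae and head, most in the head at 5.24 ± 0.28 on the log2 scale (edgeR adjusted p = 1.96e-05), and it was the member that fell in the tail, by 2.75 on the log2 scale (edgeR adjusted p = 0.00239). The pool call of grin1a was lost without 24 hpf sample 1 or sample 2. The second GluN1 gene, grin1b (Zv9 chromosome 5, 31237646 to 31281871), had 0.615, 0.138 and 0.763 CPM in the 24 hpf samples, 4.37 in the pool, 174 in the larvae, 157 in the adult head and 0.112 in the adult tail. Larvae and head stood far above the other libraries, and the tail value is 1 count. Its transcripts made up 13.1% of GluN1 FPKM in the pool, 46.0% in the larvae and 30.8% in the head, against 5.69% ± 2.34 at 24 hpf. Its rise in the larvae exceeded that of grin1a by 4.03 on the log2 scale, a difference between fitted values with no test of its own (edgeR adjusted p = 7.71e-05 for the rise in the larvae, 4.36e-05 for that in the head).

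GluN2 subunits bind glutamate and set the kinetics of the receptor. The gene grin2ab (Zv9 chromosome 1, 7839804 to 7993986) had 0.168, 0.221 and 0.565 CPM in the 24 hpf samples, 0.910 in the pool, 32.5 in the larvae, 27.4 in the adult head and 35.8 in the adult tail. It was high in the larvae, head and tail alike and at most 0.910 CPM in the 4 embryo libraries, with log2 changes of 6.65, 6.41 and 6.79 (edgeR adjusted p = 6.33e-05 in the tail). Its duplicate grin2aa had 1.01, 0.828 and 1.04 CPM in the 24 hpf samples, 2.55 in the pool, 37.9 in the larvae, 30.6 in the adult head and 2.47 in the adult tail, so that the head exceeded the tail 12.4-fold (95% interval 8.02 to 20.1), whereas grin2ab stood 1.31-fold (95% interval 1.11 to 1.55) higher in the tail than in the head. The gene grin2bb, for GluN2B, had 50.1 CPM in the larvae, 52.3 in the head and 8.996 in the tail, against 1.03 ± 0.375 CPM at 24 hpf, and rose in all 3 and in the pool. Its pool call was lost without 24 hpf sample 1 or 2 (adjusted p = 0.0762 and 0.0617 in edgeR). The gene grin2da was counted over 5567 bases in the 24 hpf files and 128057 bases in the others, a 23.0-fold difference, so its rises of 3.56 to 6.25 on the log2 scale cannot be told apart from that change. GRIN2D (2 of 2), at the same place and listed only in the 24 hpf files, had 6, 5 and 7 counts there.

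GluN3 subunits bind glycine. The gene grin3b (Zv9 chromosome 2, 26208810 to 26304333) had 2.04, 1.35 and 1.61 CPM in the 24 hpf samples, 3.46 in the pool, 3.75 in the larvae, 1.36 in the adult head and 18.7 in the adult tail. The tail was the only library above 3.75 CPM, with a log2 change of 3.48 ± 0.38 (edgeR adjusted p = 0.000402), and the head lay 13.7-fold (95% interval 7.79 to 26.3) below it. In sum, GluN1 stood at 101 FPKM in the head and 75.1 in the larvae but 0.270 in the tail, against 1.62 ± 0.363 at 24 hpf. GluN2 stood at 17.9 FPKM in the head, 21.2 in the larvae and 6.39 in the tail, against 0.442 ± 0.133 at 24 hpf. The ratio of GluN2 to GluN1 FPKM was therefore 0.404 in the pool, 0.282 in the larvae, 0.178 in the head and 23.7 in the tail, against 0.271 ± 0.0349 at 24 hpf. In no other library did the GluN2 sum exceed GluN1. The tail ratio rests on a GluN1 sum of few reads and was given no interval. The GluN2 sum includes grin2da, at 22.5% ± 5.32 of GluN2 FPKM at 24 hpf. Its interval differs 23.0-fold between annotations, and the effect of this on the 24 hpf ratio was not tested. The oocyte list, yolk precursor genes included, summed to 20877 CPM in the tail, and its part in the tail ratio was not tested. Most of that sum came from the yolk precursor genes vtg2 and vtg4, at 14051.5 and 4133 CPM. Of the other genes on the list, zp3b had 958 CPM and zar1 531 CPM in the tail.

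**Figure D3:**
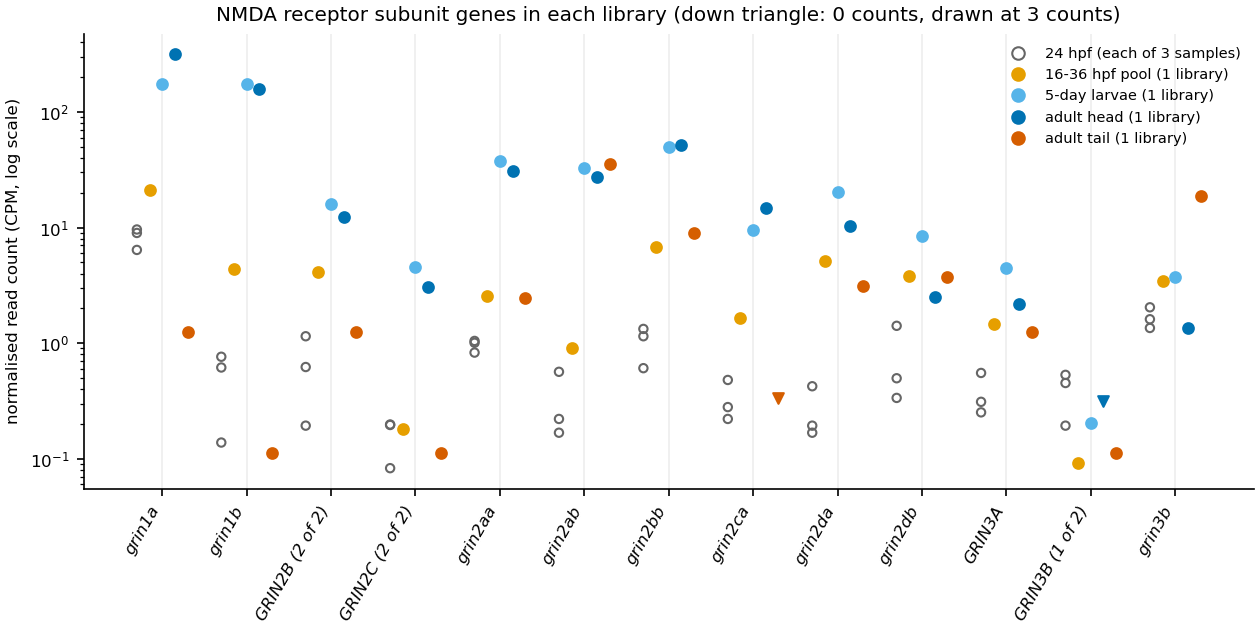
Normalised read count (CPM, log scale) of each NMDA receptor subunit gene in each library, with a down-pointing triangle at 3 counts for genes at 0. The highest library is the head for grin1a (315 CPM, against 1.24 CPM in the tail) but the tail for grin3b (1.36 CPM in the head, 18.7 CPM in the tail).

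Kainate receptors modulate transmission before and after the synapse. Of the 8 tested genes 7 rose in the larvae, 8 in the head and 2 in the tail, and none passed the edgeR test in the pool. The gene grik1a, for GluK1, had 6.35, 7.34 and 7.004 CPM in the 24 hpf samples, 4.10 in the pool, 9.82 in the larvae, 15.3 in the adult head and 43.5 in the adult tail. The tail was the highest library for this gene, with a log2 change of 2.66 ± 0.28 (edgeR adjusted p = 0.000325), and the head also rose, at 1.15 (edgeR adjusted p = 0.0131). It stood 2.84-fold (95% interval 2.34 to 3.46) higher in the tail than in the head, and it made up 24.4% of kainate FPKM in the head and 91.2% in the tail, against 65.3% ± 4.91 at 24 hpf. The kainate receptor subunit gene GRIK5 (2 of 2) rose in the tail to 2.81 CPM, against 0.251 ± 0.0270 CPM at 24 hpf (edgeR adjusted p = 0.00246). Of the remaining kainate genes, GRIK2 (1 of 2) and grik5 had 8.39 and 9.33 CPM in the head and 0.225 and 1.24 CPM in the tail. All 3 delta receptor genes rose in the larvae and head. GRID1 (1 of 2) and GRID1 (2 of 2) had 8.49 and 4.82 CPM in the head.

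Metabotropic glutamate receptors fall into group I, which couples to phospholipase C, and groups II and III, which inhibit adenylyl cyclase. All 12 genes rose in the larvae, 11 rose in the head, 1 rose in the pool, and in the tail 3 rose and 2 fell. The group III gene GRM7 rose to 35.6 CPM in the larvae and 33.4 in the head, against 6.23 ± 0.345 at 24 hpf, and the larval rise passed as well (edgeR adjusted p = 0.000528 in the larvae and 0.000351 in the head). The group II gene GRM2 (2 of 2) had 5.68, 3.81 and 5.56 CPM in the 24 hpf samples, 8.28 in the pool, 22.1 in the larvae, 21.9 in the adult head and 0.112 in the adult tail. Its level rose in larvae and head and fell in the tail, where 1 count was left, by 5.41 on the log2 scale (edgeR adjusted p = 0.00224). GRM2 (1 of 2) had 10.2 CPM in the head and 0 counts in the tail, at least 6.51-fold lower than at 24 hpf. Among group I genes, GRM5 (1 of 2) reached 21.6 CPM in the head and 6.99 in the larvae, against 0.196 ± 0.0983 at 24 hpf. The group II gene grm3, whose interval is 1.70 times longer outside the 24 hpf files, rose in the pool as well, to 1.64 CPM, against 0.0934 ± 0.0705 at 24 hpf. Its pool call was lost without 24 hpf sample 1 or 2 (adjusted p = 0.0689 and 0.0970 in edgeR). The group III gene GRM4 rose in the tail, to 9.90 CPM, against 2.98 ± 0.719 at 24 hpf (edgeR adjusted p = 0.00943), beside 13.2 CPM in the head.

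GABA-A receptors are chloride channels built mostly from alpha and beta subunits with a gamma or delta subunit. Of the 16 tested genes 15 rose in the larvae, 14 in the head, 2 in the pool and 3 in the tail, and 4 fell in the tail. The class summed to 10.9 to 14.9 CPM at 24 hpf, 18.4 in the pool, 176 in the larvae, 342 in the adult head and 12.4 in the adult tail. The gene gabrd, for the delta subunit of extrasynaptic receptors, had 2.91, 2.02 and 2.68 CPM in the 24 hpf samples, 1.00 in the pool, 35.1 in the larvae, 92.7 in the adult head and 0 in the adult tail. The head was the highest and the tail had no count, a fall of at least 7.51-fold against 24 hpf, while the head rose by 5.19 ± 0.30 on the log2 scale (edgeR adjusted p = 2.52e-05). Other falls in the tail were gabra5 (-3.29 on the log2 scale) and GABRP, at 0 counts and at least 3.92-fold lower. Both were lost without 24 hpf sample 1 (adjusted p = 0.0564 and 0.0756) or sample 2 (adjusted p = 0.0625 and 0.0922) in edgeR.

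The 3 GABA-A genes that rose in the tail also rose in the larvae and head. The gene gabra6a, an alpha subunit gene confined in mammals largely to cerebellar granule cells, had 0.168, 0.0828 and 0.169 CPM in the 24 hpf samples, 0.182 in the pool, 9.82 in the larvae, 28.1 in the adult head and 4.27 in the adult tail. The gene gabrb2 had 0.448, 0.193 and 0.367 CPM in the 24 hpf samples, 1.27 in the pool, 19.6 in the larvae, 53.5 in the adult head and 4.84 in the adult tail. For both, head exceeded larvae, larvae exceeded tail, and all 3 exceeded every embryo library. They lie next to each other on chromosome 14 of Zv9, gabra6a at 23155025 to 23171754 and gabrb2 at 23175065 to 23276808, with 3310 bases between them. In the tail their log2 changes were 4.88 ± 0.54 (edgeR adjusted p = 0.000401) and 3.83 ± 0.48 (edgeR adjusted p = 0.000706). GABRG3, the gamma gene among the 3, had 11 counts in the head and 8 in the tail. By FPKM, gabra6a made up 24.3% of the alpha genes in the head and 68.3% in the tail, against 3.66% ± 0.140 at 24 hpf. Among beta genes gabrb2 made up 43.9% in the head and 76.9% in the tail, against 9.51% ± 3.34 at 24 hpf. The alpha genes with the largest embryo shares, gabra5 and GABRA3, made up 8.94% and 0.706% in the head, against 29.0% ± 6.38 and 22.04% ± 7.76 at 24 hpf. By CPM the share of GABRA3 was 0.487% in the head, against 11.8% ± 4.63 at 24 hpf. GABRA3 was too low for the test, with at most 0.608 CPM in any library.

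Products of the GABRR genes form GABA-gated channels known above all from the retina. Of 3 tested genes 2 rose in the larvae and head, and 1 fell in the tail. GABRR2 (1 of 2) had 8.20 CPM in the larvae and 8.49 in the head, against 0.344 ± 0.198 at 24 hpf, and gabrr1 had 4.76 and 3.14 CPM, against 0.0369 ± 0.0421. The set of 7 of the 10 retina genes stood at 2473 CPM in the larvae and 2126 in the head, against 5.44 to 6.58 at 24 hpf, and its part was not tested. GABRR1 (1 of 2) differed from both, with 7.97, 9.22 and 14.1 CPM in the 24 hpf samples, 6.10 in the pool, 18.8 in the larvae, 10.2 in the adult head and 3.60 in the adult tail. It was already present in the 3 embryo samples, was not called in the larvae or head, and its fall in the tail (edgeR adjusted p = 0.0387) was lost without 24 hpf sample 2 (adjusted p = 0.0745 in edgeR). GABA-B receptors are heterodimers of a GABBR1 and a GABBR2 product, coupled to inhibitory G proteins. Of 4 tested genes 3 rose in the larvae and head and none was called in the pool or tail. The gene gabbr1b had 17.2 CPM in the larvae and 22.2 in the head, against 1.61 ± 0.883 at 24 hpf, whereas its duplicate gabbr1a had 2.73 and 2.097 CPM, against 1.13 ± 0.460, and was not called. The interval of gabbr1b is 1.42 times longer outside the 24 hpf files and that of gabbr1a 1.10 times. The share of gabbr1b in the class FPKM was 60.2% in the head, against 30.7% ± 6.87 at 24 hpf, and that of gabbr1a 5.63%, against 35.9% ± 9.26, or 5.81%, against 18.6% ± 6.21, by CPM. GABBR2 rose to 11.1 CPM in the larvae and 10.9 in the head, against 3.26 ± 0.640 at 24 hpf.

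Glycine receptors are inhibitory channels of spinal cord and brainstem, with alpha subunits that bind glycine and beta subunits that bind the scaffold gephyrin. Of the 7 tested genes 6 rose in the larvae, 5 in the head and 1 in the pool, and in the tail 1 rose and 2 fell. The gene glra4a had 7.25, 2.13 and 5.37 CPM in the 24 hpf samples, 13.8 in the pool, 10.9 in the larvae, 2.52 in the adult head and 0 in the adult tail. The pool was its highest library and the 3 samples of 24 hpf ran from 2.13 to 7.25 CPM, and it was not called in the pool, larvae or head, and it fell in the tail, where it had no count, at least 14.5-fold lower than at 24 hpf (edgeR adjusted p = 0.0136). The gene glra1, whose human counterpart is mutated in startle disease, had 0.140, 0.110 and 0.113 CPM in the 24 hpf samples, 2.00 in the pool, 10.3 in the larvae, 5.45 in the adult head and 0.562 in the adult tail. Larvae exceeded head, and both exceeded every embryo library, with log2 changes of 6.35 ± 0.48 (edgeR adjusted p = 0.000135) and 5.43 ± 0.53 (edgeR adjusted p = 0.000184). By FPKM glra1 made up 8.15% of alpha genes in the pool, 25.3% in the larvae and 28.5% in the head, against 1.94% ± 0.637 at 24 hpf, while glra4a made up 75.6%, 38.8% and 20.996%, against 60.2% ± 14.4. The beta gene glrbb had 5.57, 3.92 and 5.31 CPM in the 24 hpf samples, 5.73 in the pool, 39.2 in the larvae, 37.3 in the adult head and 0.112 in the adult tail. This beta gene rose in the larvae and head and fell in the tail, by 5.38 on the log2 scale to 1 count (edgeR adjusted p = 0.00155). Its duplicate glrba had 8.405 CPM in the larvae, 27.9 in the head and 1.80 in the tail, against 0.381 ± 0.159 at 24 hpf. The pair of beta genes differed by 4.42 on the log2 scale in their head to tail ratio, and glrba made up 42.2% of beta FPKM in the head and 94.7% in the tail, against 7.81% ± 3.71 at 24 hpf. The rise of glrba in the tail was lost without 24 hpf sample 2 in edgeR and in limma-voom.

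Neuronal nicotinic receptors are acetylcholine-gated cation channels. Of 13 tested genes 8 rose in the larvae and 7 in the head, 1 fell in the head, 4 fell in the tail, and none passed the edgeR test in the pool. The gene chrna6, for an alpha subunit found in mammals in visual and midbrain dopamine neurons, had 0.671, 0.745 and 0.650 CPM in the 24 hpf samples, 0.819 in the pool, 13.1 in the larvae, 19.0 in the adult head and 0.562 in the adult tail. Larvae and head stood apart from the other 5 libraries, with log2 changes of 4.23 ± 0.37 and 4.77 ± 0.37 (edgeR adjusted p = 7.52e-05 in the head). Its neighbour on chromosome 1, chrnb3a, which lies 72522 bases away, had 8.98, 4.86 and 8.56 CPM in the 24 hpf samples, 4.55 in the pool, 10.9 in the larvae, 13.7 in the adult head and 0.112 in the adult tail. Larvae and head lay above the range of the 24 hpf samples and the pool just below it, without passing the test, and the tail level fell to 1 count (edgeR adjusted p = 0.00264). Its duplicate chrnb3b rose to 1.42 CPM in the larvae and 4.09 in the head, against 0.0746 ± 0.0808 at 24 hpf (edgeR adjusted p = 0.000576 in the head). The gene chrnb2b, for the beta subunit of the most common brain receptor, had 26.3 CPM in the larvae, 22.1 in the head and 0.787 in the tail, against 8.14 ± 0.654 at 24 hpf, and rose in the larvae and head and fell in the tail. The gene chrna5 and CHRNB4, subunits of autonomic ganglion receptors in mammals, showed no rise that passed the test. The gene chrna5 had 5.47 CPM in the larvae, 2.94 in the head and 0.900 in the tail, against 5.23 ± 0.564 at 24 hpf, and fell in the tail (edgeR adjusted p = 0.0102). CHRNB4 had 2.94, 2.40 and 3.33 CPM in the 24 hpf samples, 5.46 in the pool, 2.84 in the larvae, 0.629 in the adult head and 0 in the adult tail. It fell in the tail, at least 8.56-fold lower (edgeR adjusted p = 0.00491), and in the head by 2.19 on the log2 scale, a call lost without 24 hpf sample 1 (adjusted p = 0.0586 in edgeR) and in DESeq2 and limma-voom. The genes chrna9 and chrna10, whose products form the receptor of hair cells, rose in the head (chrna9 to 3.67 CPM, chrna10 to 1.68 CPM), and chrna10 also in the larvae, at 2.73 CPM.

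The muscle nicotinic receptor contains alpha, beta and delta subunits with a gamma subunit in embryonic muscle, which in mammals is replaced by epsilon as the synapse matures. Its genes were the only class without a rise in any comparison: of 6 tested, 1 fell in the pool, 2 in the larvae, 3 in the adult head and 5 in the adult tail. The class summed to 213 to 297 CPM at 24 hpf, 193 in the pool, 147 in the larvae, 71.5 in the adult head and 41.5 in the adult tail. CHRNG, for the gamma subunit (Zv9 chromosome 2, 45143065 to 45158422), had 62.1, 61.1 and 68.8 CPM in the 24 hpf samples, 17.6 in the pool, 4.96 in the larvae, 5.45 in the adult head and 0.562 in the adult tail. The 3 samples of 24 hpf lie close together and every other library lies below them. It fell by 1.87 on the log2 scale in the pool (edgeR adjusted p = 0.0138), 3.69 in the larvae (edgeR adjusted p = 0.000296), 3.55 in the head (edgeR adjusted p = 0.000177) and 6.82 in the tail (edgeR adjusted p = 5.38e-05). The pool call was lost without 24 hpf sample 1 or 2 (adjusted p = 0.0789 and 0.0745 in edgeR). CHRNG has the same interval in both annotations. The epsilon gene chrne had 33.5, 17.6 and 37.8 CPM in the 24 hpf samples, 41.1 in the pool, 36.3 in the larvae, 15.7 in the adult head and 10.3 in the adult tail. The larvae lay within the range of the embryo samples for chrne and the pool above it, and its fall in the tail (edgeR adjusted p = 0.0368) was lost without 24 hpf sample 1 (adjusted p = 0.0933 in edgeR).

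The ratio of CHRNG to chrne FPKM was 1.28, 2.40 and 1.23 in the 24 hpf samples, 0.360 in the pool, 0.141 in the larvae, 0.360 in the head and 0.0528 in the tail. It lay above 1 in each 24 hpf sample and below 1 in every other library, among them the pool, whose place relative to 24 hpf is uncertain, and the larval ratio was below that of the head. Each lone ratio rests on few CHRNG reads, 193 in the pool, 49 in the larvae, 52 in the head and 5 in the tail, and the ratio of counts in the tail has an exact 95% interval of 0.0172 to 0.131. The alpha gene chrna1 had 101, 64.3 and 85.5 CPM in the 24 hpf samples, 82.7 in the pool, 59.0 in the larvae, 24.6 in the adult head and 15.1 in the adult tail, and fell in the head and tail (edgeR adjusted p = 0.00415 and 0.00158). The delta gene chrnd had 67.1, 54.7 and 81.6 CPM in the 24 hpf samples, 32.9 in the pool, 29.3 in the larvae, 11.5 in the adult head and 6.52 in the adult tail. It fell in the larvae, head and tail, and the call in the larvae was lost without 24 hpf sample 1 (adjusted p = 0.0579 in edgeR). The beta gene chrnb1 had 15.7 CPM in the larvae, 13.4 in the head and 7.76 in the tail, against 20.2 ± 4.85 at 24 hpf, and its fall in the tail was lost without sample 1 (adjusted p = 0.0786), while chrnb1l stayed at or under 1.72 CPM in all libraries. The skeletal muscle list summed to 50994 CPM in the larvae, 17769.6 in the head and 16421 in the tail, against 9224 to 17368 at 24 hpf. The larval sum stood well above the 24 hpf range, as did the pool sum of 28911 CPM. Of the 11 genes on the muscle list 8 rose and 0 fell in the larvae, 3 rose and 3 fell in the head, and 4 rose and 3 fell in the tail. The part of this list in the subunit levels was not tested. With library totals in place of the normalisation factors the class median was 0.18 in place of -0.08 in the pool and 0.05 in place of -0.43 in the larvae.

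**Figure D4:**
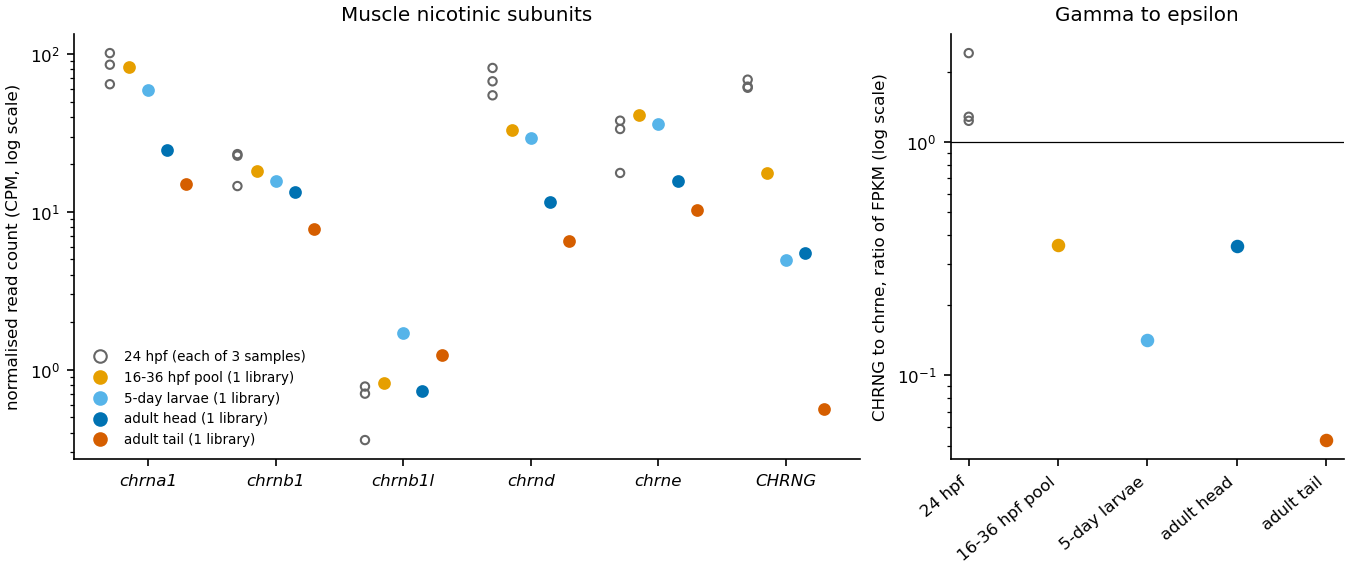
Left, normalised read count (CPM, log scale) of the muscle nicotinic subunit genes in each library; right, the ratio of CHRNG to chrne FPKM (log scale), with open points for the 3 samples of 24 hpf. The ratio lies between 1.23 and 2.40 at 24 hpf and between 0.0528 and 0.360 in the other libraries.

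Muscarinic receptors are the G protein-coupled acetylcholine receptors. Of 5 tested genes 3 rose in the larvae, 3 in the head and 1 in the tail, and none passed the edgeR test in the pool. The gene chrm2a, the main muscarinic receptor of the heart in vertebrates, had 0.0560, 0 and 0.0282 CPM in the 24 hpf samples, 0.455 in the pool, 6.48 in the larvae, 3.67 in the adult head and 1.57 in the adult tail. Levels rose in larvae, head and tail, most in the larvae at 7.58 ± 0.69 on the log2 scale (edgeR adjusted p = 6.16e-05), from at most 2 counts in any 24 hpf sample. The gene chrm4a, an inhibitory receptor of the striatum in mammals, had 7.19 CPM in the larvae, 7.97 in the head and 0 counts in the tail, against 0.633 ± 0.167 CPM at 24 hpf. The tail difference did not pass the test (edgeR adjusted p = 0.0611). The gene chrm5a was not called anywhere, at 1.01 to 1.64 CPM in the other libraries, against 0.473 ± 0.266 at 24 hpf. The 4 genes not tested, for CHRM1, CHRM3 and chrm5b, had at most 0.524 CPM in any library.

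Serotonin receptors other than the channels are G protein-coupled. Of 11 tested genes 2 rose in the larvae and 6 in the head, 2 rose and 2 fell in the tail, and none passed the edgeR test in the pool. HTR2C (1 of 2), for a receptor of choroid plexus and brain in mammals, had 4.45, 5.49 and 4.07 CPM in the 24 hpf samples, 2.09 in the pool, 7.29 in the larvae, 9.12 in the adult head and 1.35 in the adult tail. Larvae and head lay above the 24 hpf samples and the tail below them, and its fall in the tail (edgeR adjusted p = 0.0304) was lost without 24 hpf sample 1 or 2 (adjusted p = 0.0642 and 0.0711). The interval of HTR2C (1 of 2) is 3.74 times longer outside the 24 hpf files, and the effect of this on its levels was not tested. The other fall in the tail was htr1ab, an autoreceptor of serotonin neurons in its mammalian form, with no count there, against 1.24 ± 0.0807 CPM at 24 hpf, at least 3.67-fold lower (edgeR adjusted p = 0.0182). The 5-HT5A receptor genes htr5a and htr5al were highest in the tail. The gene htr5al had 0.476, 0.524 and 0.367 CPM in the 24 hpf samples, 0.455 in the pool, 1.52 in the larvae, 1.68 in the adult head and 8.55 in the adult tail. The gene htr5a had 0.615, 0.773 and 0.169 CPM in the 24 hpf samples, 0.273 in the pool, 0 in the larvae, 0 in the adult head and 3.60 in the adult tail. Both rose in the tail, with log2 changes of 4.21 ± 0.46 (edgeR adjusted p = 0.000386) and 2.78 ± 0.75 (edgeR adjusted p = 0.0179), but the call for htr5a was lost without 24 hpf sample 1 (adjusted p = 0.0504) and in DESeq2. The head lay 5.10-fold (95% interval 2.94 to 9.36) below the tail for htr5al and at least 11.4-fold below it for htr5a. HTR2B rose in the head to 3.98 CPM, against 0.0558 ± 0.0741 at 24 hpf (edgeR adjusted p = 0.000625), beside 0.506 CPM in the larvae. However, HTR2B reached the filter cut in the head alone and htr5a in the tail alone. The adjusted p-values of these rises therefore carry no weight of their own. The serotonin-gated channel genes were low throughout: HTR3A (2 of 2) had 1.11 CPM in the larvae, 1.05 in the head and 0 counts in the tail, against 2.03 ± 0.601 at 24 hpf, at least 5.99-fold lower in the tail (edgeR adjusted p = 0.0149), while HTR3B and HTR3C rose in the larvae to 1.52 and 0.810 CPM.

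Dopamine receptors fall into the D1 type, which stimulates adenylyl cyclase, and the D2 type, which inhibits it. Of 10 tested genes 5 rose in the larvae, 6 in the head and 1 in the pool, and 1 fell in the tail. The D1 gene drd1 had 0, 0.0276 and 0.226 CPM in the 24 hpf samples, 0.364 in the pool, 6.08 in the larvae, 6.81 in the adult head and 0.112 in the adult tail. Larvae and head stood apart, with log2 changes of 6.08 ± 0.84 (edgeR adjusted p = 0.00120) and 6.25 ± 0.83 (edgeR adjusted p = 0.000599). However, drd1 passed the filter on low counts only through a library other than those of 24 hpf. DRD5 (1 of 2), also of the D1 type, had 2.35, 1.13 and 1.89 CPM in the 24 hpf samples, 8.37 in the pool, 2.73 in the larvae, 0.734 in the adult head and 0.112 in the adult tail. Levels rose in the pool and fell in the tail, and were not called in the larvae or head. Both calls were lost without 24 hpf sample 1 and in DESeq2, with adjusted p = 0.0595 for the tail in edgeR. Of D2 type genes, drd4b had 2.33 CPM in the larvae and 3.56 in the head, against 0.252 ± 0.0308 at 24 hpf. The gene drd4a had 0.810 and 4.72 CPM, against 0.111 ± 0.0838, and was called in the head only. The gene drd2b rose in the larvae at 3.54 CPM and drd2a in the head at 2.94 CPM, against 0.616 ± 0.251 and 0.411 ± 0.215 at 24 hpf.

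Head and tail, 1 library each with the same annotation and a like depth, were compared by the size of the ratio. Of 114 members with at least 10 counts in the pair, 82 were at least 4-fold higher in the head and 3 were at least 4-fold lower, where 22.9% and 14.3% of all such genes were. The median head to tail ratio was 9.74 for members, 3.28 on the log2 scale, and 0.26 on that scale for all genes. A contrast of these libraries in the edgeR fit, chosen after the data were seen, gave 72 members higher and 4 lower in the head, the fourth being grik1a, where 23.9% and 20.9% of all genes were. Every AMPA, GABA-B, delta, dopamine and glycine gene with enough counts was at least 4-fold higher in the head: 8, 3, 3, 7 and 7 genes. The NMDA gene grin1b had 157 CPM in the head and 1 count in the tail, a ratio of 1399 (95% interval 251 to 55303). Ratios were 332-fold (95% interval 59.2 to 13144) for glrbb, 254-fold (95% interval 142 to 510.2) for grin1a, 156-fold (95% interval 75.3 to 388) for gria2b and at least 275-fold for gabrd. Where the tail holds 1 count, as for grin1b and glrbb, the upper bounds carry little information. Muscle subunits differed less: 1 of 6, CHRNG, was 4-fold higher in the head, and chrna1, chrnd, chrne and chrnb1 were 1.52 to 1.77 times the tail level. The 3 members higher in the tail were grin3b, htr5a and htr5al.

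**Figure D5:**
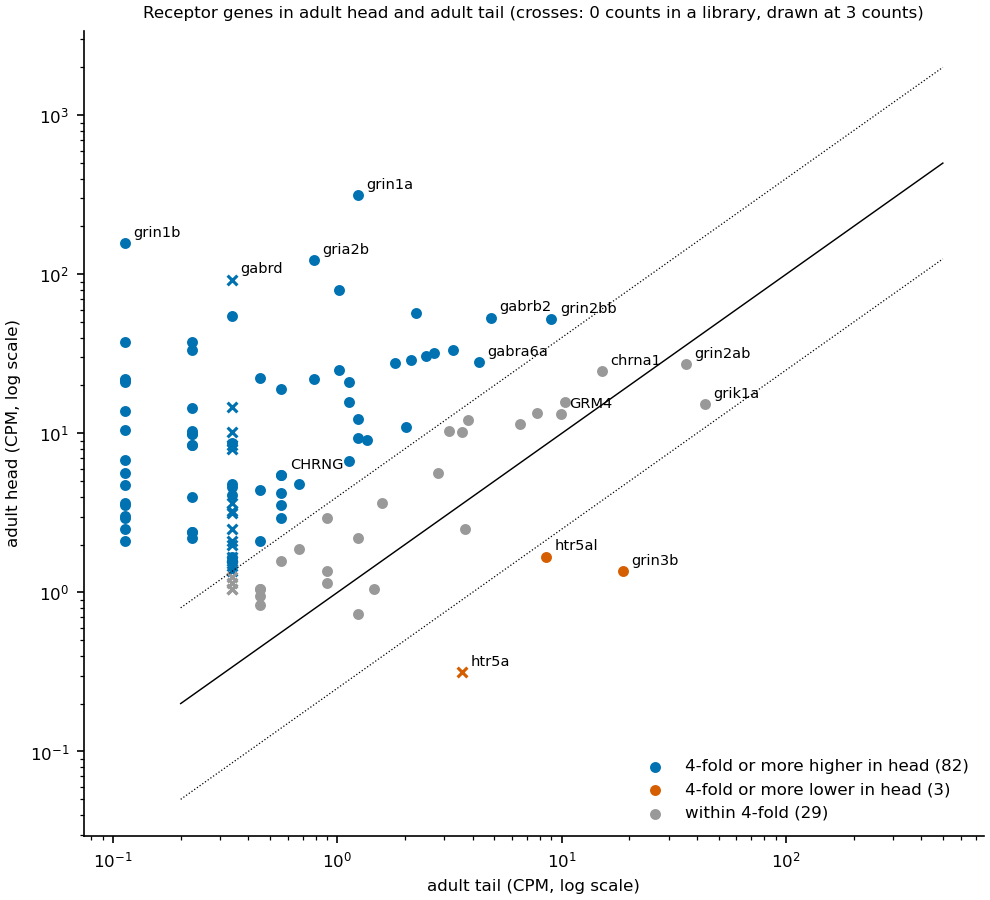
Normalised read count (CPM, log scale) of each receptor gene in the adult head (vertical axis) against the adult tail (horizontal axis). Of 114 genes with at least 10 counts in the pair, 82 lie at least 4-fold toward the head and 3 (grin3b, htr5a, htr5al) at least 4-fold toward the tail.

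The tail held a small set of receptor transcripts at a level above the embryos. They were 18 of 121 tested members (14.9%), a smaller share than the 25.4% of all genes tested that rose there. All 18 that rose there were glutamate, GABA-A, glycine, serotonin or muscarinic receptor genes, and 6 of them were NMDA subunits, counting grin2da with its 23.0-fold longer interval and grin2db and grin2aa, whose calls were lost without a 24 hpf sample. The interval of grin2db is 1.63 times longer outside the 24 hpf files. Of the 18, 12 passed the filter on low counts only through another library. The largest log2 changes were 6.79 for grin2ab, 5.54 for chrm2a, 5.20 for GABRG3, 4.88 for gabra6a and 4.21 for htr5al. Of the 18, 14 were called in all 3 fits that leave out a 24 hpf sample, the exceptions being htr5a, grin2db, glrba and grin2aa. Against the head, the tail level was higher for grin2ab, grin3b, htr5al, htr5a, grik1a and grin2db, and lower for the other 12, and the interval of the ratio includes 1 for grin2db and GABRG3. Of the oocyte markers, zp3b had 1.68 CPM in the head and 958 in the tail, against 1.87 at 24 hpf, and zar1 had 0.419 in the head and 531 in the tail, against 0.958. Their part in the tail levels of receptor genes was not tested. Among members that fell in the tail with no count left, the bounds were at least 14.5-fold for glra4a, at least 8.56-fold for CHRNB4, at least 7.51-fold for gabrd and at least 6.51-fold for GRM2 (1 of 2).

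Larvae and the embryo pool share 1 annotation. Of 116 members with at least 10 counts in the pair, 65 were at least 4-fold higher in the larvae and 0 were lower, where 14.4% and 3.63% of all such genes were, and the median log2 ratio was 2.22 for members and 0.03 for all genes. The edgeR contrast, chosen after the data were seen, gave 46 higher and 1 lower, CHRNG, where 9.05% and 5.91% of all genes were. Larvae and pool are single libraries, and the part of annotation in the larval rises was not tested by this pair. Large ratios with at least 10 counts in the pool were those of grin1b, 39.8-fold (95% interval 29.9 to 54.2), grin2ab, 35.7-fold (95% interval 19.2 to 75.2), and gabrd, 35.1-fold (95% interval 19.4 to 70.97). The gene gabra6a reached 54.0-fold (95% interval 14.5 to 452) from 2 counts in the pool. Muscle subunits were all within 4-fold.

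Few members differed 4-fold between head and larvae. Of 124 members with at least 10 counts in the pair, 4 were at least 4-fold higher in the head and 3 at least 4-fold lower, where 7.95% and 5.34% of all such genes were, with a median log2 ratio of -0.15 for members and -0.08 for all genes. They included HTR2B, 7.87-fold (95% interval 3.09 to 25.6), drd4a, 5.82-fold (95% interval 2.72 to 14.3), and chrna9, 5.18-fold (95% interval 2.27 to 13.8). The 3 lower in the head were CHRNB4, 4.51-fold (95% interval 1.83 to 13.3), glra4a, 4.35-fold (95% interval 2.77 to 7.08), and drd2l, 4.35-fold (95% interval 0.900 to 41.3), whose interval includes 1. The edgeR contrast called 0 members in either direction, where 3.11% of all genes were higher and 3.46% lower, with 13 members at an unadjusted p under 0.05, so none of the 7 is separated from the replicate spread of the 24 hpf samples. This does not show that larvae and head are alike. No other tool was run on this contrast.

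Of 18 pairs of duplicates whose symbols share all but a final a or b, 5 differed by 3 or more on the log2 scale in their head to tail ratio or in their larval change: gabbr1, grin1, grin2a, glrb and chrnb3. In the head to tail ratio gabbr1b exceeded gabbr1a by 3.41, grin2aa exceeded grin2ab by 4.02 and chrnb3a exceeded chrnb3b by 3.33. For the chrnb3 pair this value rests on few or no tail counts of either gene, so its size and direction are uncertain. For the gabbr1 pair it also rests on few tail counts, so its size is uncertain. Each gabbr1 gene made up 15.4% by CPM of a GABA-B class sum of 2.92 CPM in the tail. In the larval change chrnb3b exceeded chrnb3a by 3.59. These differences between fitted values or single libraries have no test of their own. The members also lie close together in places: 16 pairs, with 27 members, lie within 100000 bases of each other on Zv9. They include GABA-A clusters on chromosomes 6, 13, 14 and 21, gria2a beside glrba on chromosome 1, and gria2b beside glrbb on chromosome 14. In the last pair, both genes rose in the larvae (gria2b 4.86, glrbb 2.99 on the log2 scale) and head (5.95 and 2.92). The neighbours chrnb3a and chrna6 differed, at log2 changes of 0.55 and 4.23 in the larvae.

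Genes that assemble receptors and handle transmitter were counted in the same fit, where over all genes 26.4% rose and 23.2% fell in the larvae, 32.3% and 29.8% did in the head, 25.4% and 26.5% in the tail, and 6.32% and 5.55% in the pool. Of 39 tested genes for receptor anchoring and assembly at synapses, 27 rose and 2 fell in the larvae, 28 rose and 4 fell in the head, 6 rose and 8 fell in the tail, and 10 rose and 3 fell in the pool. In the tail both counts are below the shares over all genes. Among them shank2, a postsynaptic scaffold gene, had 24.7 CPM in the larvae and 26.3 in the head, against 0.931 ± 0.0956 at 24 hpf, and cacng8a, for an AMPA receptor auxiliary subunit, had 23.2 and 20.8 CPM, against 0.437 ± 0.168. DLG3 (1 of 2) and dlg3 fell in the larvae, head and tail. The level of dlg3 also fell in the pool. It was 0.546 CPM there, 0.709 in the larvae, 1.05 in the head and 1.46 in the tail, against 6.18 ± 0.641 at 24 hpf. These libraries use another annotation than the 24 hpf files, and its part in the falls was not tested. Of 23 genes for transmitter synthesis, vesicle loading and uptake, 19 rose and 1 fell in the larvae, 17 rose and 2 fell in the head, 2 rose and 11 fell in the tail, and 6 rose and 1 fell in the pool. The gene gad2, for an enzyme of GABA synthesis, had 155 CPM in the larvae and 284 in the head, against 3.16 ± 0.732 at 24 hpf. The vesicular glutamate transporter slc17a6b had 106 CPM in the larvae, 72.02 in the head and 0.450 in the tail, against 22.8 ± 3.36 at 24 hpf. The glutamate transporter slc1a3a fell, with 13.4 CPM in the larvae and 13.9 in the head, against 381 ± 104 at 24 hpf. Of 19 neuromuscular junction genes, 8 rose and 3 fell in the larvae, 7 rose and 6 fell in the head, 4 rose and 6 fell in the tail, and 2 rose and 0 fell in the pool. The head and tail counts of this list are near the shares over all genes. The gene rapsn, which clusters muscle nicotinic receptors, fell in the head to 4.72 CPM and in the tail to 3.82, against 28.7 ± 9.33 at 24 hpf, whereas ache, for acetylcholinesterase, rose in the larvae to 252 CPM and in the head to 176, against 30.04 ± 11.7.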

How the data were processed

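Libraries were made from total RNA with an Illumina TruSeq RNA kit, per the labels' protocols. Per the submitters' processing notes, the tools named were Cufflinks 1.3.0, HTSeq 0.5.3p3, TopHat 1.4.1, CASAVA 1.4 and Bowtie 0.12.7, with Zv9 as the genome build. No setting, strand choice or annotation release was given in the sources used here. The deposited gene counts are whole, unnormalised read counts per gene, and the deposited FPKM values are length-normalised levels per gene, both made by the authors. The 24 hpf samples appear as 12 records, 4 for each of 3 samples, and 9 further records of the same samples were not used. The 24 hpf files list 28491 gene IDs and the other files 32313, of which 28364 are shared, 16558 with the same start and end. Symbols also differ: 87 members carry a member symbol in the 24 hpf files and 140 in the others, so IDs were matched across files. Rows for reads on no gene, ambiguous or not uniquely aligned were left out, and they made up 28.3% to 48.1% of all rows' counts per library. Start positions in the files count from 0, and 1 was added.

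Counts of shared IDs were fitted with edgeR 4.0.16 (quasi-likelihood, TMM factors, filterByExpr with a minimum count of 10, adjusted p under 0.05) in R 4.3.3 over all 7 libraries, with 2 residual degrees of freedom. The fit was tested on simulated data with known changes. Changes are on counts, because FPKM and CPM ratios to 24 hpf differ, and shares of subunits within a library are on FPKM. Pairs of single libraries were compared by a 4-fold ratio of CPM, for genes with at least 10 counts in the pair, with exact Poisson intervals at 95% and a floor of 3 counts, and have no replicate check. The alternatives were DESeq2 1.42.0, limma-voom and limma 3.58.1 on log2(FPKM + 0.1) and log2(FPKM + 1), other size factors, no filter, each 24 hpf sample left out, IDs of the same interval only, and the pool joined to 24 hpf. Contrasts between single libraries, counts without muscle subunits, and splits by filter and interval were added after seeing the data. Tables were made with pandas 2.3.3 and figures with matplotlib 3.10.9 in Python 3.11.15.

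The members and the marker and partner lists were chosen with earlier results of these data known. Members were named by rule: in each class the 3 with the highest mean FPKM (all where a class has 5 or fewer), the 10 largest called rises and falls per comparison at 1 CPM or more, every member that fell in larvae, head or tail, the 10 largest head to tail ratios in each direction, all muscle subunits, and duplicates that differ by 3 or more on the log2 scale. Named outside that rule, after their values were seen, were GABRA3, GRIN2D (2 of 2), GRM4, chrm5b, chrna9, HTR2B, drd2a, drd2b, drd2l, drd4a and htr1aa, and the single genes of the marker and partner lists. Results on some genes that this rule selects or the retina list holds are not reported here.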

Additional observations from a re-analysis of the deposited data

Results flagged for a closer look

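Some members moved in opposite directions in head and tail against the same 24 hpf samples, with a difference between head and tail that passed the edgeR contrast after Benjamini-Hochberg adjustment. These members already moved in opposite directions in the same fit, so passing this contrast was nearly certain and is no separate support. The difference, head minus tail on the log2 scale, was 7.98 for grin1a, 8.30 for glrbb, 7.53 for GRM2 (2 of 2), 7.48 for gria3b, 6.47 for gabra5, 6.29 for gria2a, 5.97 for gria1b, 4.80 for chrnb2b and 3.75 for gria4b. For gabrd (13.92) and GRM2 (1 of 2) (10.74) the tail had 0 counts, so these are fitted values and no bounds. The adjusted p-values of these edgeR contrasts ran from 0.000218 for grin1a to 0.00403 for gria1b. All of these named genes rose in the head and fell in the tail. The falls of gabra5, gria1b and gria4b in the tail were lost without 1 of the 24 hpf samples. The pan-neuronal sum was 2489 CPM in the head and 69.9 CPM in the tail, and its part in these differences was not tested.

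The serotonin receptor gene htr1aa is listed outside the 24 hpf files only and enters no comparison with them. It had 1 count in the pool, 17.0 counts in the larvae, 12 in the head and 0 in the tail.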

How the results depend on the processing

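No call of a named member reversed under any alternative that was run. Of 75 calls of named members, 36 were lost under at least 1 alternative and 23 without 1 of the 24 hpf samples. No paired analysis was possible because only the 24 hpf group has replicates. Counts of members that moved by over 1.5 times were these. In the pool, 12 rose and 1 fell; limma-voom gave 0 and 0, IDs of the same interval gave 2 rises, limma on log2(FPKM + 1) gave 2 falls, and leaving out a 24 hpf sample gave 0 to 17 rises and 0 to 1 falls. In the larvae, IDs of the same interval gave 49 rises of the 87, and the 2 falls became 1 with library totals, 1 with the pool joined to 24 hpf, 1 with the same interval and 1 to 3 without a 24 hpf sample. In the head, the same interval gave 49 rises of the 85 and 2 falls of the 4. In the tail, the 18 rises became 33 with limma on log2(FPKM + 0.1), 9 with the pool joined and 8 with the same interval, and the 28 falls became 12 with limma-voom and 13 with the same interval. The same-interval fit tests fewer members, 67 in place of 121, so its counts cannot be set directly against the main ones. All 31 calls of named members present in that fit were kept.

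For the 81 assembly, junction and transmitter genes, the pool's 18 rises became 7 and 10 on log2 FPKM with 0.1 and 1 added, 0 with limma-voom, 4 with the same interval and 1 to 19 without a 24 hpf sample, and its 4 falls became 2 with 0.1 added, 0 with limma-voom, 1 with the same interval and 0 to 4 without a sample. The larval 54 rises became 35 with the pool joined and 24 with the same interval, and its 6 falls 2 and 1. The head's 52 rises became 21 with the same interval, and its 12 falls 6 with the pool joined and 3 with the same interval. The tail's 12 rises became 4 with the pool joined and 6 with the same interval, and its 25 falls 14 with limma-voom, 13 with the pool joined and 8 with the same interval. The same-interval fit tests fewer of these genes, 35 in place of 81, so its counts cannot be set directly against the main ones. The cause of these shifts was not tested.

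Between single libraries, the larvae had 0 members 4-fold lower than the pool by CPM and 1 lower by the edgeR contrast. The head had 4 higher and 3 lower than the larvae, against 2 and 0 by FPKM and 0 and 0 by the contrast. The tail share of grin2ab among GluN2 genes was 68.5% by FPKM and 64.5% by CPM. Shares over IDs of the same interval gave no value, because grin2ab, gria2b and chrne, among others, differ in interval. Members with few counts have wide intervals: 36 of 143 reached 10 counts in the tail and 110 and 112 in the head and larvae, which have a like depth, against 75 to 88 in the more deeply sequenced 24 hpf samples.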
